A study of Mus musculus with 30 samples.

Results

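The 10 genes described here belong to the NRF2 antioxidant programme of the mouse: Nqo1, Hmox1, Gclm, Gclc, Srxn1, Txnrd1, Gsr, Gpx2, Nfe2l2 and Keap1. They were chosen by name, as the rows of the deposited gene count table whose Ensembl identifiers map to these symbols, and all 10 were found among 57186 genes. The study treated 2 mouse cell lines with cycloheximide (CHX), an inhibitor of translation elongation, at 0.1 µg/mL, and sequenced stranded mRNA libraries after 0, 1, 2, 5 and 48 h. NIH/3T3 is an immortalized embryonic fibroblast line, grown in serum. CGR8 is a mouse embryonic stem cell line, grown without serum in N2B27 with 2i and LIF, which hold the cells in the pluripotent state. Both lines carry a ROSA26 SLT knock-in, including in the untreated cells, and each of the 10 groups of line and time has 3 replicates, lettered A, B and C. Cells at 0 h are called untreated here, although their treatment label names the same CHX dose as the others. The labels do not say whether replicates came from separate cultures, so p-values measure the spread between these libraries, which may be technical.

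NRF2, encoded by Nfe2l2, is a transcription factor that is held at a low level because KEAP1 brings it to a ubiquitin ligase for degradation. Oxidants and electrophiles modify KEAP1, newly made NRF2 then accumulates, pairs with a small MAF protein and binds antioxidant response elements near genes for glutathione synthesis, thioredoxin recycling and detoxification. Since NRF2 is short-lived, its abundance depends on continued translation, and mRNA levels such as those measured here say nothing direct about the amount of NRF2 protein.

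Libraries held 18216993 to 30503109 counts, and levels are given in CPM, a count relative to the size of its library, with library sizes scaled by the trimmed-mean method TMM over all 30 libraries. Summed levels of 6 pluripotency markers reached at most 0.545 CPM in NIH/3T3 and lay between 4239 and 7195 CPM in CGR8, while fibroblast markers summed to 4059 to 10240 CPM in NIH/3T3 and to at most 0.976 CPM in CGR8. The 4 endoderm markers summed to 1.21 to 4.27 CPM in CGR8 and, through Gata4 alone, to 11.8 to 20.7 CPM in NIH/3T3. Some libraries stood apart from their group: the SD of log2 differences from the other libraries was 0.445 for NIH/3T3 1 h C and 0.399 for CGR8 2 h A, against 0.0780 to 0.0801 in NIH/3T3 at 48 h. Libraries also differed in how their counts depended on transcript length. The slope of a library's log2 difference from the untreated mean, per doubling of exon length, ran from -0.426 to -0.146 in CGR8 at 5 h and from 0.177 to 0.190 in NIH/3T3 at 48 h. Each edgeR comparison was therefore also fitted with this length trend removed, an alternative chosen after seeing the data. The value from that fit is given where it ends a call. Levels per kilobase, ratios within a library and correlations were not corrected for the trend, and their dependence on it was not tested.

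The element that NRF2 binds has the core TGACNNNGC, where N is any base. A search of both strands of RefSeq promoter windows (build GRCm38.p6, 250 bases before to 50 after an annotated start) found it in 4071 of 32851 windows, or 12.4%. Of the 10 genes, 7 have windows in the table, 9 windows in all, and 4 of the 9 hold the core. Hmox1, Gclc and Gsr have no entry. The 250 bases before the start are shown for the 4 genes with a match and for Nqo1, which has none in its window and was the only member called higher at 2 or 5 h of CHX. Capitals mark matches to TGACNNNGC or to the related form TGAGNNNGC, which was added after the sequences were seen and occurs in 17.6% of all windows. Letters read 5′ to 3′ on the gene's own strand.
Gclm, chr3:122245307-122245556, plus strand: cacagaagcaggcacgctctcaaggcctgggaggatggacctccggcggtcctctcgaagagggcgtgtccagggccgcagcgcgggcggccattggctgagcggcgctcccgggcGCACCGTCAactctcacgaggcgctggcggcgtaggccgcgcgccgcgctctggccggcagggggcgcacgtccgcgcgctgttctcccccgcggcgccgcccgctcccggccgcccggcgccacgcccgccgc
Srxn1, chr2:152105274-152105523, plus strand: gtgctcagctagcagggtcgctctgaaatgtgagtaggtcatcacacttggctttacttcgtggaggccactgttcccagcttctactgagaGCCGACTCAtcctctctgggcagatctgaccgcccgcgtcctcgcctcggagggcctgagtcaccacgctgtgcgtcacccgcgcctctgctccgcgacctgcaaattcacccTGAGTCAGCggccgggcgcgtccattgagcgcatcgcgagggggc
Txnrd1, chr10:82858956-82859205, plus strand: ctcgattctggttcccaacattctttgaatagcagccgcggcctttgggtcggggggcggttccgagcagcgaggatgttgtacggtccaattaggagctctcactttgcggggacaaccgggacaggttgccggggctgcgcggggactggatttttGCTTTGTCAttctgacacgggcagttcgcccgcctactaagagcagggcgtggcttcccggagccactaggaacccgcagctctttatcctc
Nfe2l2, chr2:75704664-75704913, minus strand: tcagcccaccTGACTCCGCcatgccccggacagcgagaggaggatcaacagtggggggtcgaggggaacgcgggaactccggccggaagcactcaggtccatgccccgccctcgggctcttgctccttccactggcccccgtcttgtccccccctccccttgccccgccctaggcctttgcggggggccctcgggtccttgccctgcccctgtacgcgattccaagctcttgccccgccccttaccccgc
Nqo1, chr8:107403206-107403455, minus strand: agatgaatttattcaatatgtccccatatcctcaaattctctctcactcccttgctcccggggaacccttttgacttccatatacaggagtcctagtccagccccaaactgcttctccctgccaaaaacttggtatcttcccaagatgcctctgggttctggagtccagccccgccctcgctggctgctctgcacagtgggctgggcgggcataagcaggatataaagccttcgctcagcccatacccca
The Gclm match GCACCGTCA, the core read on the other strand, begins 134 bases before the start. Srxn1 has TGAGTCAGC beginning 45 bases before its start and GCCGACTCA 158 bases before it, both of the added form, and the core itself as GCTAGGTCA 28 bases after it, outside the stretch shown. Txnrd1 has 3 windows for 3 annotated starts, and the core lies in the second, 92 bases before the start. The match in the Nfe2l2 window, TGACTCCGC, begins 240 bases before the start. A match is a description of letters, and no match in these windows says only that the letters are not there.

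In untreated cells the lines held different amounts of these mRNAs. Relative to NIH/3T3, 7 of the 10 were lower in untreated CGR8 and 3 were higher by edgeR's quasi-likelihood test, in which a gene is called at a Benjamini-Hochberg adjusted p under 0.05 over all genes tested. Over all genes in the same test, 36.3% were called lower and 42.8% higher. The median log2 difference of the 10 was -0.86, against 0.15 over all genes. In none of the 10 did the 3 untreated CGR8 libraries overlap the 3 untreated NIH/3T3 libraries. The share of all genes without such overlap was not computed. As 13883 of the 17549 genes tested were called, this separation is not read as particular to the members. Here and below, less RNA of a gene per cell and fewer cells expressing it cannot be told apart in bulk libraries.

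Srxn1, sulfiredoxin, which repairs over-oxidized peroxiredoxins, showed one of the widest gaps. It measured 269, 246 and 277 CPM in the NIH/3T3 libraries and 30.3, 32.5 and 27.4 CPM in CGR8, 8.77-fold lower (log2 difference -3.13 ± 0.18 SE, edgeR adjusted p = 1.55e-15). Gpx2, a selenium-dependent glutathione peroxidase known mainly from gut epithelium, had no count in any of the 15 NIH/3T3 libraries and 35.7, 47.1 and 36.2 CPM in untreated CGR8. Against a floor of 3 counts over the untreated NIH/3T3 group, which is 0.0411 CPM, the CGR8 level was at least 965-fold higher. A pseudogene, Gpx2-ps1, exists, and reads that the counting could assign to either make the Gpx2 level uncertain.

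Gsr, the glutathione reductase that returns oxidized glutathione to its reduced form, went the other way, at 122, 116 and 118 CPM in NIH/3T3 and 278, 301 and 275 CPM in CGR8 (log2 difference 1.26 ± 0.09 SE, edgeR adjusted p = 2.71e-13). Hmox1, the heme oxygenase that opens heme to biliverdin, was 1.49-fold higher in CGR8. The remaining 6 genes were lower in CGR8 by similar amounts, from 1.75-fold for Keap1 to 2.18-fold for Nfe2l2.

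Levels of different genes can be compared only per length of exon. In NIH/3T3, Nqo1 (138 ± 10.3 CPM per kb, SD, n = 3) and Txnrd1 (131 ± 4.03) led and their libraries overlapped, followed by Srxn1 at 93.6 ± 5.79. Nfe2l2 stood at 47.9 CPM per kb, above Gsr at 43.1 and Hmox1 at 42.9, whose ranges overlapped. Gclm and Gclc lay at 31.3 and 30.3 CPM per kb and overlapped, and Keap1 was at 10.8. In CGR8 the order began with Gsr (103 ± 5.14 CPM per kb), then Nqo1 (76.0 ± 8.85) and Txnrd1 (71.9 ± 2.97), which overlapped, then Hmox1 at 63.8. Nfe2l2 at 22.0 CPM per kb was next, Gclm at 16.7 overlapped Gclc at 16.1, and Gpx2 at 12.3 overlapped both Gclc above it and Srxn1, at 10.7, below it. Keap1, at 6.16 CPM per kb, was again the lowest of the genes with counts.

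**Figure D1:**
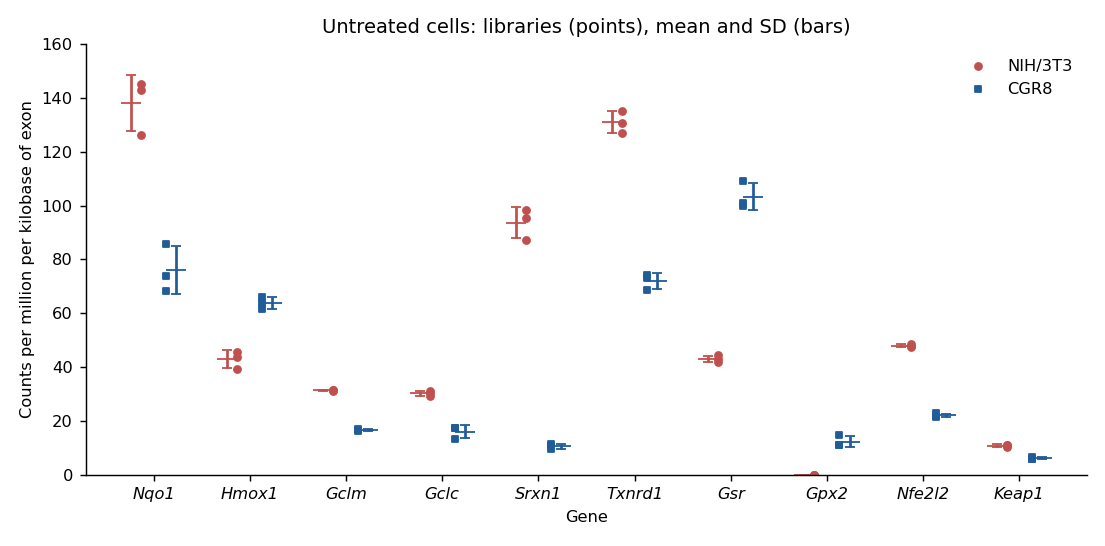
Untreated level of each gene in CPM per kilobase of exon in NIH/3T3 (circles) and CGR8 (squares); points are the 3 libraries of each line, bars the mean and SD. Srxn1 lies near 94 in NIH/3T3 and near 11 in CGR8, Gsr is higher in CGR8, and Gpx2 has no counts in NIH/3T3.

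Under CHX most of these mRNAs fell by 5 h in both lines. In NIH/3T3, where Gpx2 had no counts and 9 genes were tested, 8 fell at 5 h and none rose, against 27.1% of all genes called lower and 24% higher. In CGR8, 7 of 10 fell and 1 rose at 5 h, against 27.2% lower and 24.9% higher over all genes. The median log2 change of the tested members was -0.50 in NIH/3T3 and -0.46 in CGR8, against -0.01 over all genes in either line.

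At 48 h, 5 of 9 were below untreated and 1 above in NIH/3T3, with 25.6% of all genes called lower and 26.7% higher. In CGR8 at 48 h, 7 of 10 were lower and none higher, against 15.6% and 12.2% of all genes. Between 5 and 48 h, 5 of the 9 rose again in NIH/3T3 and 1 fell, with 34.1% of all genes called higher and 31.4% lower. In CGR8, 2 rose and 2 fell between those times, against 28.9% higher and 28.6% lower over all genes, shares close to the members' own.

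Of the early times, only 2 h in NIH/3T3 had members called by edgeR in the main fit. The falls of Hmox1 (log2 change -0.57) and Gsr (-0.39) there stayed called without any 1 library and with the length trend removed. At 2 h in NIH/3T3, 1 gene rose and 4 fell, against 16.1% and 18.9% of all genes. Leaving out an untreated library took this count from 5 to 2 without replicate A and to 3 without B or C, as did leaving out 2 h C (3), and it was also 3 with the length trend removed, which ended the calls of Gclm (-0.09, edgeR adjusted p = 0.366) and Txnrd1 (-0.11, edgeR adjusted p = 0.249). At 2 h in CGR8, edgeR called 0 of 10 members, where 8.97% of all genes were called higher and 11% lower. That background rests on single libraries: of 3174 genes called, 1062 were called without CGR8 2 h C, 1424 without 0 h A and 1690 without 0 h C. At an unadjusted p under 0.05 there were 3 (Nqo1, Hmox1 and Gclc). DESeq2 called 2 members, and 3561 of all 15933 genes tested. Limma-voom called 4 members, and 4609 of all genes. EdgeR called 3 members without CGR8 2 h A and 1 each without CGR8 2 h B or 0 h B. At 1 h edgeR called 0 of 9 in NIH/3T3, with 0 at an unadjusted p under 0.05, against 0.732% of all genes called by edgeR in either direction. DESeq2 called 0 members and 265 of 13941 genes, and limma-voom called 2 members and 2881 genes. At 1 h in CGR8 edgeR called 0 of 10, with 1 at an unadjusted p under 0.05, against 0.27% of all genes called by edgeR. DESeq2 and limma-voom each called 0 members there, and 132 and 1044 of 15933 genes.

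**Figure D2:**
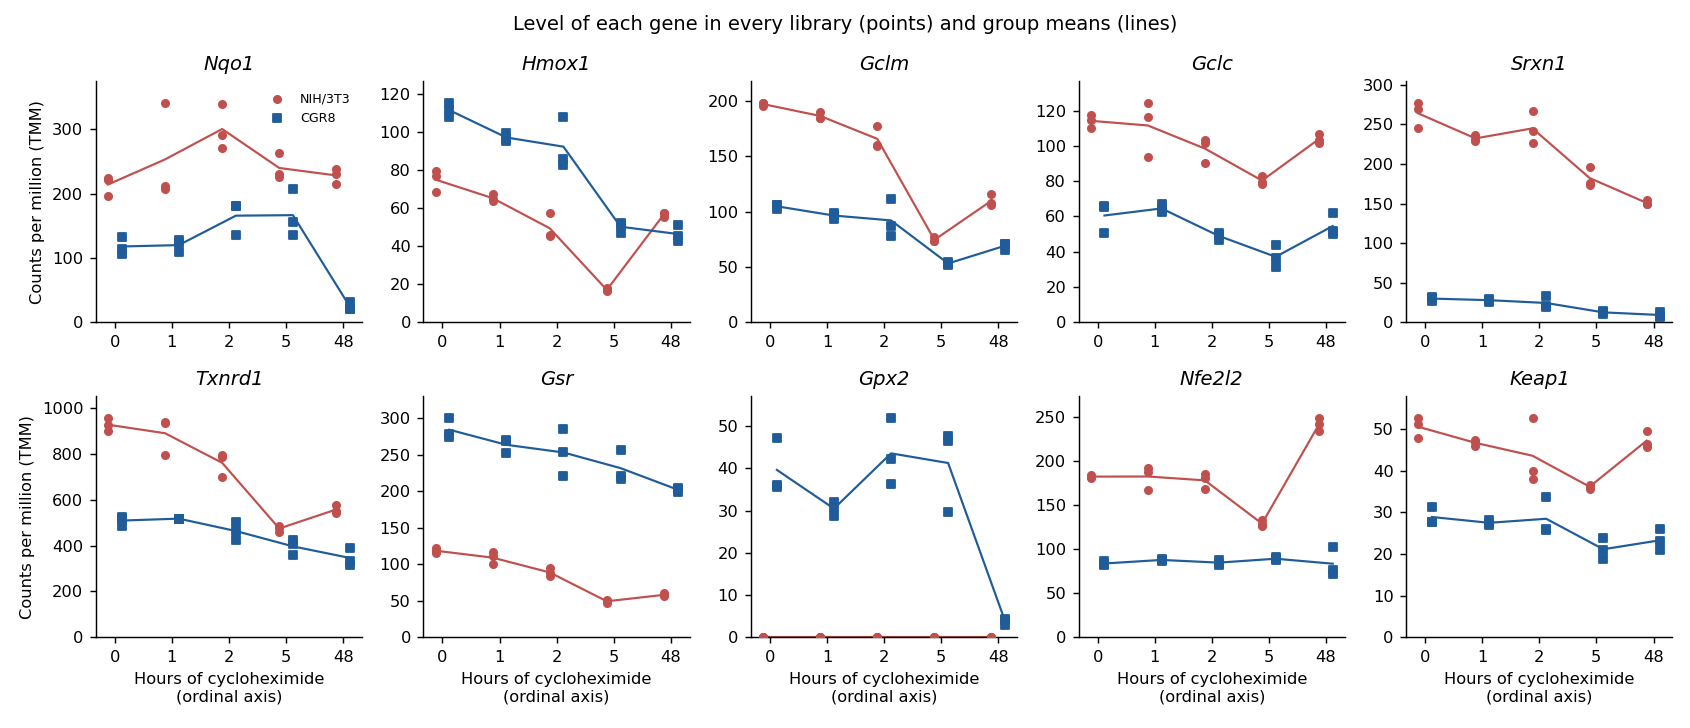
Level of each of the 10 genes in CPM against hours of CHX, on an ordinal time axis, in NIH/3T3 (circles) and CGR8 (squares); points are libraries and lines join group means. Hmox1 in NIH/3T3 drops to 16.4 to 18.1 CPM at 5 h and returns to 55.5 to 57.7 CPM at 48 h, and Nqo1 and Gpx2 in CGR8 drop at 48 h.

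The lines differed in these responses at 5 and 48 h. The difference, the CGR8 change minus the NIH/3T3 change, can be tested for the 9 genes with counts in both lines, and edgeR called 6 of them at 5 h and 5 at 48 h. Over all genes 13.3% were called at 5 h and 21.9% at 48 h, in either direction. At 2 h edgeR called 0 of 9, with 1 (Hmox1) at an unadjusted p under 0.05, against 2.02% of all genes called by edgeR. DESeq2 called 0 members and 440 of 17549 genes, and limma-voom called 1 member and 709 genes. At 1 h edgeR called 0, with 0 at an unadjusted p under 0.05 and 0 by either other tool, against 0.16% of all genes called by edgeR. The scaling matters for the 5 h difference: its median over all genes was 0.13 with TMM, 0.05 with DESeq2's size factors in edgeR and -0.06 with library size alone. Of all genes called at 5 h, the share with a positive difference was 61.6%, 45.9% and 31.5% under these scalings in turn. With TMM it was 28.5% without CGR8 5 h A (median over all genes -0.06) and 30.1% without CGR8 5 h B (median -0.04). The 6 members called at 5 h kept the sign of their difference under each of them, and library size alone called 3: Hmox1, Gsr and Srxn1. Library size alone also moved the all-gene median of the CGR8 change at 5 h to -0.12.

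**Figure D3:**
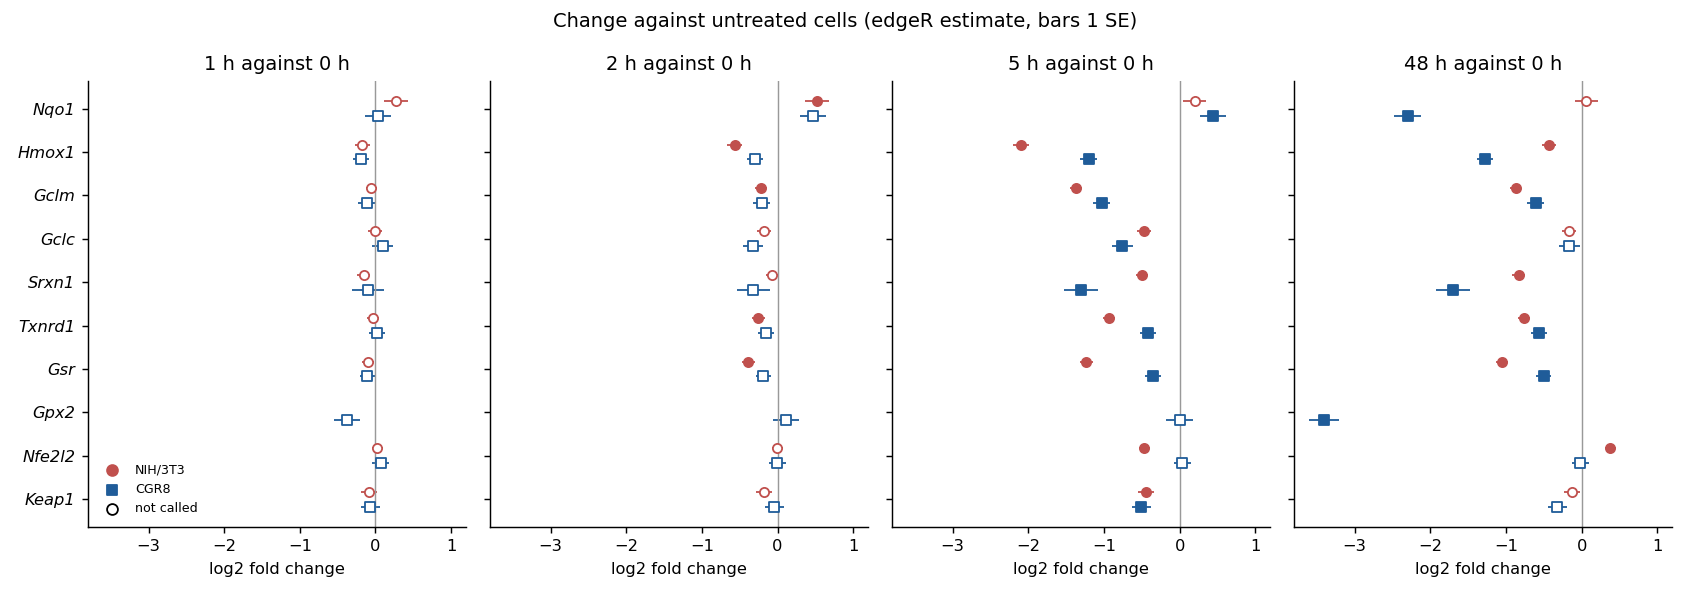
Log2 fold change of each gene against untreated cells at 1, 2, 5 and 48 h in NIH/3T3 (circles) and CGR8 (squares), estimated by edgeR; bars are 1 SE, and filled symbols passed the adjusted threshold of 0.05. At 5 h all called genes except Nqo1 in CGR8 lie left of 0, and at 48 h Gpx2 (-3.41) and Nqo1 (-2.30) lie farthest left, both in CGR8.

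The first role is glutathione synthesis, whose rate-limiting enzyme, glutamate-cysteine ligase, is made of a catalytic subunit (Gclc) and a modifier subunit (Gclm). In NIH/3T3, Gclm measured 198, 198 and 195 CPM untreated, 76.9, 73.3 and 73.3 CPM at 5 h, and 106, 116 and 108 CPM at 48 h. The 3 groups did not overlap: the level at 5 h was 2.58-fold lower than untreated (log2 change -1.37 ± 0.08 SE, edgeR adjusted p = 3.2e-09), and at 48 h it was between the others (-0.87 ± 0.07). In CGR8, Gclm went from 103, 106 and 106 CPM to 52.0, 54.6 and 52.9 CPM at 5 h (-1.03 ± 0.11, edgeR adjusted p = 4.6e-06) and to 70.9, 65.8 and 71.0 CPM at 48 h. The difference between lines at 5 h was 0.43 ± 0.13 (edgeR adjusted p = 0.0264), a call that was not stable. It was lost with library size alone (0.23, edgeR adjusted p = 0.236), DESeq2's size factors in edgeR (0.34, edgeR adjusted p = 0.102) and DESeq2 (adjusted p = 0.0603). It was lost with no filter on low counts (edgeR adjusted p = 0.259), a mean of at least 5 CPM (edgeR adjusted p = 0.0607) and the length trend removed (0.41, edgeR adjusted p = 0.0653). It was also lost on leaving out any 1 of 6 of the 12 libraries: CGR8 0 h A or C, CGR8 5 h A or B, and NIH/3T3 5 h B or C (0.24 to 0.43). The CGR8 rise between 5 and 48 h, 0.42 on the log2 scale, was not called with the length trend removed (0.14, edgeR adjusted p = 0.307). Exons of Gclm overlap the exons of 2 other annotated genes, Gm17494 on the opposite strand and the pseudogene Gm6061 on the same strand, over 540 bases, so its counts may include or have lost reads there.

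Gclc moved less. It measured 110.4, 118 and 115 CPM in untreated NIH/3T3 and 79.4, 83.0 and 78.6 CPM at 5 h (log2 change -0.47 ± 0.09 SE, edgeR adjusted p = 4.54e-04). At 48 h it measured 107, 103 and 102 CPM, all below the untreated libraries, a change of -0.17 that did not pass. This change was called with only the groups compared (edgeR adjusted p = 0.0104) and with limma-voom (adjusted p = 0.0103). In CGR8 it went from 65.3, 50.5 and 66.0 CPM to 36.2, 31.5 and 43.8 CPM at 5 h (-0.76 ± 0.14), with no overlap, and to 61.8, 49.95 and 52.0 CPM at 48 h, which overlapped the untreated libraries. The CGR8 change at 48 h, -0.16, did not pass, but limma-voom called it (-0.29, adjusted p = 0.0159). Neither time gave a difference between lines called by edgeR for Gclc: -0.20 ± 0.16 at 5 h and -0.01 ± 0.16 at 48 h. Limma-voom called the difference at 5 h (-0.43, adjusted p = 0.00365).

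The balance of the subunit mRNAs was read as a ratio within each library, with no correction for the length trend. Counts of Gclc per kilobase divided by those of Gclm in the same library gave 0.931 to 0.995 in untreated NIH/3T3, 1.73 to 1.89 at 5 h and 1.49 to 1.68 at 48 h. In CGR8 the same ratio was 0.794 to 1.06 untreated, 0.963 to 1.38 at 5 h, which overlaps, and 1.22 to 1.46 at 48 h, which does not. The exact two-sided permutation p against untreated was 0.1 at both times in NIH/3T3, the smallest that 3 against 3 libraries allow, and 0.3 and 0.1 in CGR8. With 24 such tests over 3 ratios none could pass a threshold of 0.05, and the smallest adjusted value was 0.218.

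The second role is the recycling of thioredoxin and glutathione. Txnrd1, the cytosolic thioredoxin reductase, measured 901, 958 and 925 CPM in untreated NIH/3T3, 461, 477 and 487 CPM at 5 h, and 553, 578 and 543 CPM at 48 h. It was 1.91-fold lower at 5 h (log2 change -0.93 ± 0.08 SE, edgeR adjusted p = 4.01e-07) and 1.70-fold lower at 48 h, with no overlap with untreated libraries at either time. In CGR8, Txnrd1 measured 518, 485 and 525 CPM untreated, 359, 426 and 406 CPM at 5 h, and 389, 315 and 335 CPM at 48 h. Its fall of 0.41 at 5 h was not called with the length trend removed (-0.11, edgeR adjusted p = 0.276), while that at 48 h was (-0.57 in the main fit, -0.61 with the trend removed).

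Gsr fell further in the fibroblasts. In NIH/3T3 it went from 122, 116 and 118 CPM to 51.6, 46.7 and 49.8 CPM at 5 h and 56.1, 60.3 and 58.3 CPM at 48 h, 2.35-fold and 2.08-fold lower. In CGR8 it went from 278, 301 and 275 CPM to 221, 257 and 217 CPM at 5 h (log2 change -0.35 ± 0.10 SE) and 199.7, 204 and 204 CPM at 48 h (-0.50 ± 0.10). The difference between lines was 0.97 ± 0.13 at 5 h (edgeR adjusted p = 5.24e-06) and 0.54 ± 0.13 at 48 h (edgeR adjusted p = 2.37e-03), the fall being smaller in CGR8 each time. For Txnrd1 the difference at 5 h was 0.61 ± 0.13 (edgeR adjusted p = 1.86e-03). That call was lost with library size alone (0.41, edgeR adjusted p = 0.0726) and without CGR8 5 h B (0.39, edgeR adjusted p = 0.0641). Per kilobase, Gsr stood to Txnrd1 as 0.311 to 0.349 in untreated NIH/3T3 and as 1.35 to 1.59 in untreated CGR8, groups that do not overlap. At 48 h the ratios were 0.261 to 0.276 and 1.32 to 1.67.

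Srxn1 was the recycling gene that fell further in the stem cells. In NIH/3T3 it declined from 269, 246 and 277 CPM to 197, 174 and 176 CPM at 5 h and 149, 154 and 149 CPM at 48 h (log2 changes -0.50 ± 0.08 and -0.84 ± 0.08 SE), and the step between 5 and 48 h was a further fall of 0.34 (edgeR adjusted p = 1.78e-03). In CGR8 it measured 30.3, 32.5 and 27.4 CPM untreated, 14.8, 12.6 and 10.6 CPM at 5 h and 13.3, 7.47 and 7.22 CPM at 48 h. These are falls of 2.47-fold and 3.24-fold, with no overlap with untreated libraries. The difference between lines was -0.88 ± 0.24 at 48 h (edgeR adjusted p = 8.31e-03). At 5 h it was -0.72 ± 0.24 (edgeR adjusted p = 0.0457), a call that was lost on leaving out any 1 of 10 of the 12 libraries, all but CGR8 5 h A and B, with adjusted p from 0.0508 to 0.1. Srxn1 had lower counts in CGR8, 179 to 961 per library against 2798 to 8230 in NIH/3T3. The SEs of its changes were also larger there, 0.22 at 5 h and 0.23 at 48 h, against 0.08 at both times in NIH/3T3. Whether the counts account for this was not tested.

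The peroxidase Gpx2, measured in CGR8 only, did not pass at 1, 2 or 5 h and then dropped. Its libraries held 35.7, 47.1 and 36.2 CPM untreated, 47.6, 46.5 and 29.8 CPM at 5 h, and 4.23, 3.01 and 4.03 CPM at 48 h. The 48 h libraries lie below all others, 10.6-fold lower than untreated (log2 change -3.41 ± 0.20 SE, edgeR adjusted p = 5.26e-08), on 81 to 116 counts each. In NIH/3T3 at 48 h it had 0 counts in all 3 libraries, so that the CGR8 level at that time was at least 84.4-fold higher against the floor of 3 counts over the group.

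The next role is the handling of quinones and heme. Nqo1, the quinone reductase whose mRNA is a common readout of NRF2 activity, was the only one of the 10 to be called higher at 2 or 5 h. In NIH/3T3 it measured 196, 225 and 222 CPM untreated and 339, 292 and 271 CPM at 2 h, 1.44-fold higher with no overlap (log2 change 0.52 ± 0.16 SE, edgeR adjusted p = 0.0176). The call was lost without the untreated library A (0.46, edgeR adjusted p = 0.0779) or without 2 h A (0.43, edgeR adjusted p = 0.0619). At 5 h it was 231, 264 and 225 CPM, a change of 0.20 that did not pass. That change was called with only the groups compared (0.21, edgeR adjusted p = 0.0202) and with limma-voom (0.26, adjusted p = 0.00266). With the length trend removed it was 0.06 (edgeR adjusted p = 0.697). At 48 h Nqo1 measured 239, 231 and 215 CPM, which overlapped untreated cells.

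In CGR8, Nqo1 went from 115, 133 and 106 CPM to 181, 137 and 181 CPM at 2 h, 157, 208 and 136 CPM at 5 h, and 31.3, 20.7 and 20.4 CPM at 48 h. The 2 h libraries lay above the untreated ones, a change of 0.47 that did not pass (edgeR adjusted p = 0.0631). It was called with DESeq2 (adjusted p = 0.0402), limma-voom (adjusted p = 0.0247), no filter on low counts, a mean of at least 5 CPM and without 2 h B. With the length trend removed the 2 h change was 0.285 (edgeR adjusted p = 0.206). The 5 h libraries lay above the untreated ones (log2 change 0.44 ± 0.17 SE, edgeR adjusted p = 0.0398). That call was lost with the length trend removed (0.15, edgeR adjusted p = 0.44), with library size alone (0.33, edgeR adjusted p = 0.0964), with a replicate block (edgeR adjusted p = 0.0507), and without CGR8 0 h A (0.42, edgeR adjusted p = 0.104), 0 h C (0.37, edgeR adjusted p = 0.139) or 5 h B (0.27, edgeR adjusted p = 0.222). At 48 h, however, all 3 libraries were far below: 4.93-fold lower than untreated (-2.30 ± 0.18, edgeR adjusted p = 3.93e-07) and 6.69-fold lower than at 5 h. Nqo1 has 1.55 kb of exon, the shortest of the 10. NIH/3T3 1 h C, with a length slope of -0.180, held 341 CPM of it, where 1 h A and B, at 0.0676 and 0.104, held 208 and 212 CPM. With the trend removed, its 2 h rise in NIH/3T3 was 0.36 (edgeR adjusted p = 0.0304) and its 48 h change in CGR8 was -2.21. Its difference between lines at 48 h, -2.38 ± 0.25 (edgeR adjusted p = 8.79e-08), was the largest of the 9.

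Hmox1 had the deepest fall at 5 h of any member in NIH/3T3. It measured 76.9, 68.6 and 79.9 CPM untreated, 57.6, 45.8 and 45.3 CPM at 2 h, 16.4, 18.1 and 16.8 CPM at 5 h, and 57.4, 57.7 and 55.5 CPM at 48 h. The 5 h level was 4.29-fold below untreated (log2 change -2.10 ± 0.10 SE, edgeR adjusted p = 6.77e-10) and rose 3.18-fold by 48 h, to a level still 1.35-fold below untreated. In CGR8 it went from 108, 116 and 112 CPM to 51.5, 52.5 and 47.2 CPM at 5 h and stayed near there, at 51.2, 45.6 and 42.8 CPM, at 48 h. These are falls of 2.30-fold and 2.42-fold. With the length trend removed, the CGR8 step between 5 and 48 h, -0.07 in the main fit, became a called rise of 0.27 (edgeR adjusted p = 0.0267) and the direction of that step therefore depends on this choice. The lines thus differed in opposite ways at the 2 times: CGR8 minus NIH/3T3 was 0.99 ± 0.14 at 5 h (edgeR adjusted p = 2.74e-05) and -0.86 ± 0.14 at 48 h (edgeR adjusted p = 5.66e-05).

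The last role is control. Nfe2l2 mRNA in NIH/3T3 measured 181, 182 and 184 CPM untreated, 128, 132 and 126 CPM at 5 h, and 249, 242 and 234 CPM at 48 h. It was lower at 5 h (log2 change -0.47 ± 0.07 SE, edgeR adjusted p = 7.05e-05) and higher at 48 h (0.38 ± 0.07, edgeR adjusted p = 3.95e-04), and was the only member called higher than untreated at 48 h in either line. In CGR8 it lay at 86.5, 82.9 and 81.4 CPM untreated, 87.3, 88.2 and 91.4 CPM at 5 h, and 102, 76.2 and 71.7 CPM at 48 h, changes of 0.04 ± 0.11 and -0.02 ± 0.11 that did not pass. The difference between lines was 0.59 ± 0.13 at 5 h (edgeR adjusted p = 2.73e-03), lost with library size alone (0.40, edgeR adjusted p = 0.0827) and without CGR8 5 h A (0.42, edgeR adjusted p = 0.0542). At 48 h it was -0.41 ± 0.13 (edgeR adjusted p = 0.0225), and that call was lost with no filter on low counts (-0.39, edgeR adjusted p = 0.183) and on leaving out any 1 of 8 of the 12 libraries (adjusted p from 0.05 to 0.0965). The 4 whose loss kept the call were NIH/3T3 48 h C and CGR8 0 h B, 0 h C and 48 h A.

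Keap1 mRNA fell in both lines at 5 h. It measured 52.7, 47.9 and 51.2 CPM in untreated NIH/3T3 and 35.7, 36.5 and 36.3 CPM at 5 h (log2 change -0.45 ± 0.11 SE), and 27.7, 31.3 and 27.7 CPM in untreated CGR8 and 23.8, 20.9 and 18.7 CPM at 5 h (-0.51 ± 0.12). The difference between lines was 0.03 ± 0.16, which does not show that they responded alike. At 48 h neither line passed: 46.5, 49.4 and 45.7 CPM in NIH/3T3 and 25.9, 23.1 and 20.9 CPM in CGR8, where all 3 libraries lay below the untreated ones (-0.32, edgeR adjusted p = 0.0646). The CGR8 change was called with a replicate block (edgeR adjusted p = 0.0404), library size alone (edgeR adjusted p = 0.0335), only the groups compared (edgeR adjusted p = 0.0466), limma-voom (adjusted p = 0.00496) and without 48 h A (edgeR adjusted p = 0.0486). Limma-voom also called the NIH/3T3 change (-0.15, adjusted p = 0.0159). Its rise of 0.32 between 5 and 48 h in NIH/3T3 was lost without 48 h B or 5 h A (edgeR adjusted p = 0.0546 and 0.0538) and with the length trend removed (0.21, edgeR adjusted p = 0.0642). An antisense gene, Gm16754, overlaps 510 bases of Keap1 exons, and the strand setting of the counting is not given. Per kilobase, Keap1 stood to Nfe2l2 as 0.213 to 0.236 in untreated NIH/3T3, 0.223 to 0.233 at 5 h and 0.152 to 0.166 at 48 h. In CGR8 the ratio was 0.259 to 0.305 untreated, 0.166 to 0.220 at 5 h and 0.205 to 0.245 at 48 h.

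**Figure D4:**
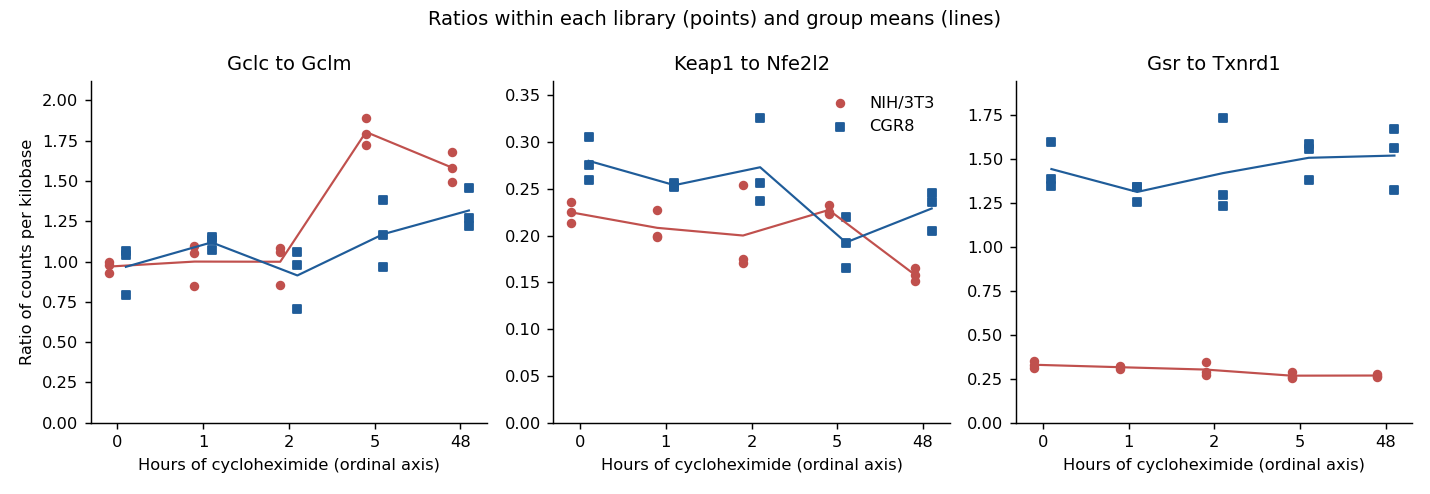
Ratios of counts per kilobase within each library (points) and group means (lines) against hours of CHX, on an ordinal time axis, for Gclc to Gclm, Keap1 to Nfe2l2 and Gsr to Txnrd1, in NIH/3T3 (circles) and CGR8 (squares). Gclc to Gclm rises from near 1 to between 1.73 and 1.89 at 5 h in NIH/3T3, and Gsr to Txnrd1 stays above 1 in every CGR8 library and below 0.35 in every NIH/3T3 library.

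Other genes of the pathway were described with 3 lists. Of 28 other NRF2 target genes, 13 fell and 1 rose in NIH/3T3 at 5 h, and 19 fell and 2 rose at 48 h, with list medians of -0.17 and -0.68 on the log2 scale. Over all genes there, 27.1% were called lower and 24% higher at 5 h, and 25.6% and 26.7% at 48 h. In CGR8, 26 were tested: 8 rose and 5 fell at 5 h (median 0.02), and 16 fell and 1 rose at 48 h (median -0.57). Over all genes in CGR8, 24.9% were called higher and 27.2% lower at 5 h, and the list's 5 h counts were near these shares. At 48 h, 15.6% of all genes were called lower and 12.2% higher. In untreated cells 22 of the 28 were lower in CGR8 and 4 higher, against 36.3% and 42.8% of all genes. The gene with the largest rise in NIH/3T3 at 5 h was Ugdh, the enzyme that makes UDP-glucuronate, from 126 to 391 CPM (1.66 ± 0.11 SE), and the largest fall was that of Osgin1, from 20.9 to 8.69 CPM. At 48 h Gsta4, a glutathione S-transferase acting on lipid aldehydes, fell from 270.4 to 52.6 CPM in NIH/3T3 (-2.39 ± 0.14). In CGR8 the same gene was the one with the largest rise at 5 h, from 326 to 667 CPM (0.98 ± 0.14, and 0.61 with the length trend removed). Ephx1, the microsomal epoxide hydrolase, rose at 48 h in NIH/3T3 from 284 to 532 CPM and in CGR8 from 2.49 to 12.8 CPM. Cbr3, a carbonyl reductase, fell most in CGR8 at 48 h, from 24.1 to 4.18 CPM (-2.53 ± 0.32). Ugdh and Ephx1 share exon bases with annotated neighbours on their own strand (158 and 72 bases).

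Among 15 partners and regulators of NRF2 (small MAF and BACH factors, ligase subunits and kinases), 11 fell and 1 rose in CGR8 at 5 h (list median -0.98). Over all genes in CGR8, 27.2% were called lower and 24.9% higher. In NIH/3T3, 7 of the 13 tested fell and 1 rose at 5 h (list median -0.36), against 27.1% and 24% of all genes. Mafg, a small MAF partner, was the largest fall in each line, from 123 to 39.7 CPM in CGR8 (-1.68 ± 0.12 SE) and from 74.9 to 33.5 CPM in NIH/3T3 (-1.12 ± 0.13). Its exons share 124 bases with Sirt7. Rbx1, a subunit of the KEAP1 ligase with an annotated pseudogene, was the 1 that rose at 5 h, from 123 to 230.3 CPM in CGR8 and from 157 to 202 CPM in NIH/3T3. Another small MAF gene, Maff, rose in NIH/3T3 at 2 h from 25.2 to 49.5 CPM (1.00 ± 0.14) and was down to 7.51 CPM at 48 h.

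The third list holds antioxidant enzymes that are not counted as NRF2 targets here. In CGR8 at 5 h, of 23 tested, 11 rose and 2 fell (median 0.33), against 24.9% and 27.2% of all genes. With the length trend removed, 10 rose and 3 fell. At 48 h in CGR8, 6 fell and none rose, against 15.6% and 12.2% of all genes. In NIH/3T3, with 23 tested, 6 rose and 3 fell at 5 h, against 24% and 27.1% of all genes. The 6 that rose are near that background. At 48 h in NIH/3T3, 3 rose and 12 fell, against 26.7% and 25.6%. Gpx4, the peroxidase that reduces lipid hydroperoxides, showed the largest rise at 5 h in both lines, from 238 to 486 CPM in CGR8 (0.98 ± 0.21 SE, and 0.71 with the length trend removed) and from 219 to 317 CPM in NIH/3T3 (0.57 ± 0.15). It has an annotated pseudogene, Gpx4-ps2. Gss, the glutathione synthetase that follows glutamate-cysteine ligase, fell most in CGR8 at 48 h, from 79.5 to 29.4 CPM (-1.44 ± 0.22), and its exons overlap 3 genes on the opposite strand. No list was tested as a set.

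**Figure D5:**
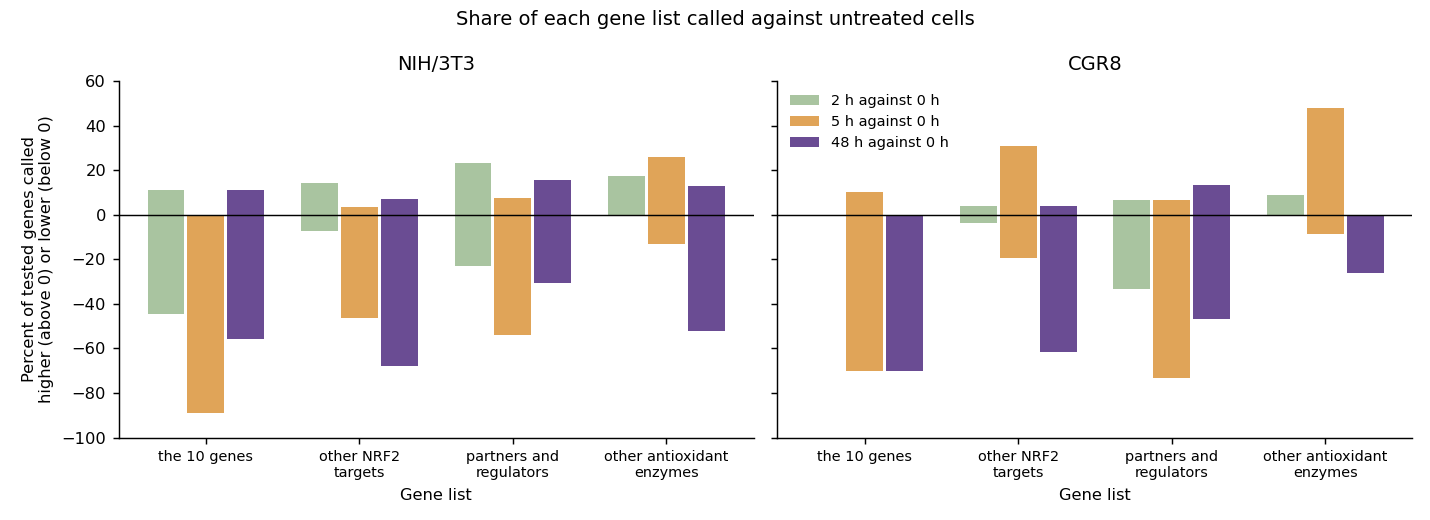
Percent of the tested genes of each list called higher (bars above 0) or lower (bars below 0) than in untreated cells at 2, 5 and 48 h, in NIH/3T3 (left) and CGR8 (right). Most of the 10 genes are called lower at 5 h in both lines, and the other antioxidant enzymes in CGR8 have more genes called higher (11) than lower (2) at 5 h. Over all genes at 5 h, 27.1% in NIH/3T3 and 27.2% in CGR8 were called lower, and 24% and 24.9% higher.

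The genes whose patterns over the 15 libraries of a line were most like those of a member were ranked by Pearson correlation of log2 CPM. No member was among the closest 2 of another member. In CGR8, Gpx2 was closest to Ggt1, a gamma-glutamyltransferase (r = 0.99), and Aqp3, a water and glycerol channel (r = 0.98). Nqo1 in CGR8 was closest to Ghitm (r = 0.99) and Fabp3 (r = 0.99), and Srxn1 to Slc48a1, a heme transporter on the list of other NRF2 targets (r = 0.98). In NIH/3T3, Gsr was closest to Gpr137b (r = 0.99) and Nfe2l2 to Xbp1, a factor of the unfolded protein response (r = 0.97). Nfe2l2 in CGR8, which varied little, reached only 0.79, with Ank3. Among the members themselves, the pairs most alike were Txnrd1 and Gsr (r = 0.98) and Gclm and Gsr (r = 0.97) in NIH/3T3, and Nqo1 and Gpx2 (r = 0.98) and Hmox1 and Srxn1 (r = 0.96) in CGR8. The lowest was that of Nqo1 with Gclc in each line, at -0.37 in NIH/3T3 and -0.26 in CGR8. These correlations share libraries, depth and the time course, and are given as descriptions.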

How the data were processed

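The values are whole-number read counts per gene, deposited by the authors as one table of 30 libraries. The submitters' processing notes name STAR, DESeq2 and the build GRCm39, and the counting tool, its strand setting and the annotation release are not given in the sources used here. The genome annotation used for exon lengths and overlaps was GENCODE M21 on GRCm38, so no coordinates in the files' build are given, and the promoter windows carry RefSeq's own. Identifiers were matched to symbols for 51880 of 57186 genes (90.7%).

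Genes with enough counts (edgeR 4.0.16 filterByExpr, minimum count 10, minimum total 15) were scaled by TMM and tested with edgeR's quasi-likelihood F test, with 1 model per line for times and 1 model of all 30 libraries for line differences. P-values were Benjamini-Hochberg adjusted over all genes tested, with a call at under 0.05. The SE is the log2 change divided by the square root of F. Replicates differed by more than counting noise in every pair (lowest chi-square per degree of freedom 1.67), so none was counted as a duplicate. Alternatives were RLE scaling, library size alone, DESeq2 1.42.0, limma 3.58.1 voom with sample weights, other filters on low counts, fitting only the groups compared, a replicate block, leaving out each library and, added after seeing the data, removal of the length trend. Named list genes are those with the largest called rise and fall in each list and comparison among genes reaching 10 CPM in a group compared. The lists were 28 other NRF2 targets, 15 partners and regulators and 24 other antioxidant enzymes. The 10 genes, the lists and the tests were chosen with earlier results of these data known.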

Additional observations from a re-analysis of the deposited data

Results flagged for a closer look

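Differences between the lines in the response to CHX, tested as the CGR8 change minus the NIH/3T3 change in 1 edgeR model, passed the adjusted threshold of 0.05 for 6 genes at 5 h and 5 at 48 h, in log2 units. At 5 h the difference was 0.985 for Hmox1 and 0.971 for Gsr, 0.607 for Txnrd1, 0.589 for Nfe2l2 and 0.425 for Gclm, all falling less in CGR8, or not at all in the case of Nfe2l2. Srxn1 went the other way, at -0.715. At 48 h the difference was -2.38 for Nqo1, -0.861 for Hmox1, -0.878 for Srxn1 and -0.411 for Nfe2l2, lower in CGR8, and 0.537 for Gsr, which fell less there. The differences of Hmox1 and Nfe2l2 had opposite signs at the 2 times. Of these 11 differences, those of Gclm and Srxn1 at 5 h and of Nfe2l2 at 48 h were lost without 6, 10 and 8 of the 12 libraries in turn, and those of Txnrd1 and Nfe2l2 at 5 h without 1 library each. Leaving out any 1 library kept 4 or 5 calls at 5 h. Library size alone lost those of Gclm, Txnrd1 and Nfe2l2 at 5 h, and other settings given above also lost those of Gclm at 5 h and Nfe2l2 at 48 h.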

How the results depend on the processing

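No call of a member reversed under any alternative run, apart from the uncalled CGR8 step of Hmox1 between 5 and 48 h, which became a rise of 0.272 with the length trend removed. The number of members called moved by over 1.5 times as follows. With limma-voom it was 2 in NIH/3T3 at 1 h, 4 in CGR8 at 2 h, 7 in CGR8 between 5 and 48 h, and 1 for the line difference at 2 h. Limma-voom also called more of all genes in these comparisons: 2881 (102 in the main fit), 4609 (3174), 10273 (9157) and 709 (355) in turn. Dropping the filter on low counts gave 3 in NIH/3T3 at 2 h, with 4770 of 30551 genes called (4878 of 13941 in the main fit). For CGR8 at 2 h, where the main fit called 0, it was 1 without that filter, 2 with DESeq2, 1 with library size alone, 2 with a mean of at least 5 CPM and 1 with the length trend removed. Over all genes, these settings called 3297 of 33433, 3561 of 15933, 3247 of 15933, 2976 of 9889 and 2805 of 15590 in turn. The trend removal gave 3 in NIH/3T3 at 2 h, with 4685 of 13677 genes called. Library size alone gave 3 for the line difference at 5 h, with 2100 of 17549 genes called (2329 in the main fit). Leaving out 1 library gave 2 to 4 in NIH/3T3 at 2 h, with 3050 to 5599 genes called. It gave 0 to 3 in CGR8 at 2 h, with 1062 to 3924 genes called. The replicate letters were not taken to pair libraries: correlations of same-letter deviations ran from -0.523 to 0.373, and in no comparison were all 3 over 0.1. With a replicate block the counts were 8 (NIH/3T3) and 7 (CGR8) at 5 h, and 6 and 8 at 48 h. In the main fit they were 8 and 8 at 5 h, and 6 and 7 at 48 h.

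Over all genes, the count called in NIH/3T3 at 1 h was 102, and 265 with DESeq2, 2881 with limma-voom, 272 without a filter, 211 with the length trend removed, 27 with only the groups compared, 475 without 1 h C, 193 without 0 h B, 52 without 0 h A and 53 without 0 h C. In CGR8 at 1 h it was 43, and between 65 and 1044 under DESeq2, limma-voom, no filter, the trend removed and only the groups compared, and 15 to 26 without any 1 library. In CGR8 at 2 h it was 3174, and 965 with only the groups compared, 1062 without 2 h C, 1424 without 0 h A and 1690 without 0 h C. In NIH/3T3 at 2 h it was 4878, and 3078 without 0 h A and 3050 without 2 h C. Limma-voom called 7827 genes in NIH/3T3 at 2 h (4878 in the main fit), 7063 in CGR8 at 48 h (4429), and 259, 709, 6373 and 7622 for the line differences at 1, 2, 5 and 48 h (28, 355, 2329 and 3849). Fitting only the groups compared gave 15 and 182 for those at 1 and 2 h, no filter gave 44 at 1 h, and a mean of at least 5 CPM gave 8601 between untreated lines (13883). Of the genes called, 68.4% were higher in CGR8 at 1 h with library size alone (53.5% with TMM), and 31.8% had a positive line difference at 2 h with RLE (42.8%). The Srxn1 and Gpx2 levels at 48 h in CGR8 rest on low counts, 179 to 365 and 81 to 116 per library. A removed length trend cannot be told apart from a length-dependent response to CHX.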
